A study of Rattus norvegicus with 6 samples.

Results

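Of the 26689 gene IDs counted in these rat (Rattus norvegicus) libraries, 6 belong to the response to low oxygen and to the handling of glucose, and all 6 passed the filter on low counts that 9932 IDs passed. They were taken by Ensembl ID as Hif1a, Vegfa, Slc2a1, Ldha, Pklr and Fbp1. The files give IDs without symbols. The RefSeq table holds all 6 symbols but pairs 0 Ensembl IDs with them, so the names rest on the ID list alone and the pairs were not checked against an annotation. Hif1a, Vegfa, Slc2a1, Ldha and Pklr fall under hypoxia and glycolysis, while Fbp1 encodes an enzyme of the opposite pathway, gluconeogenesis.

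HIF-1α, the product of Hif1a, is degraded when oxygen is plentiful, and it accumulates and drives its target genes when oxygen is scarce. Its control by oxygen acts chiefly on the protein, so the mRNA is not a readout of HIF activity. Known HIF targets include Vegfa, Slc2a1 and Ldha. Liver switches between breaking glucose down and making it, and the liver form of pyruvate kinase (Pklr) and fructose-1,6-bisphosphatase (Fbp1) stand on opposite sides of that switch.

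RNA was sequenced from whole liver and from hepatocytes isolated by collagenase perfusion, each under 3 conditions. Treated IR stands for ischemia reperfusion with etanercept, a fusion protein that binds tumor necrosis factor (9 mg/kg, 18 to 16 h before), and nitroglycerin, a nitric oxide donor (6 µg/kg/min by infusion before and during). IR stands for ischemia reperfusion alone, made by clamping the portal vein for a time, and control for healthy untreated animals, for which no sham operation is named. RNA was taken 1 day after IR and pooled from 3 animals per library, and the hepatocytes came from additional animals, so each of the 6 groups is 1 library. The labels name no strain, sex or age. The study asks whether interfering with vasoconstriction or inflammation improves the outcome of this injury.

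Reads in genes ran from 1945331 to 7160610 per library, with liver control the shallowest and liver IR the deepest, and the 6 genes together held 3728 to 9962 reads per library. Levels below are CPM, the reads of a gene relative to the TMM-scaled library total, with a 95% exact Poisson interval that covers counting error only and not the variation between animals or pools. Across libraries 3 reads equal 0.400 to 1.39 CPM. One gene took from 8.10% of reads in hepatocyte treated IR to 19.4% in hepatocyte IR. Levels of different genes are not compared, since reads were not divided by transcript length. A gene is called apart between 2 libraries if it differs at least 2-fold with a 95% Clopper-Pearson counting interval that excludes equality. That rule of size has no replicate check and gives no p-value. The defining markers of hepatocytes and of other liver cells were not checked, because their IDs are not paired with names here. In whole liver, fewer cells of a type and less RNA per cell cannot be told apart.

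The widest differences were those of Pklr and Hif1a. Pklr was 4.01-fold lower in the liver IR library and 5.02-fold lower in the liver treated IR library than in liver control. In hepatocytes it was 1.74-fold higher in IR than in control. Hif1a was 2.14-fold higher in hepatocyte IR than in hepatocyte control, and 3.17-fold lower in hepatocyte treated IR than in hepatocyte IR. Of all genes, 15.8% and 8.78% were at least as far from equality in these Hif1a comparisons. For Pklr in liver against control the shares were 0.624% for IR and 0.513% for treated IR. Vegfa, Slc2a1, Ldha and Fbp1 were within 2-fold in all 6 comparisons within a preparation. In the fit across both preparations, 0 of the 6 genes passed for any of the 3 comparisons of conditions, where 0 of 9932 genes passed.

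The stretch before the start of 3 of these genes is shown because it holds motifs known for the 2 pathways, with 250 bases each from RefSeq on GRCr8. Pklr is shown for its large difference in liver, Hif1a for its difference in hepatocytes, and Ldha as a known HIF target. Capitals mark matches to ACGTG on either strand, a form of the core of the hypoxia response element. Other forms of that core were not searched. Capitals also mark the consensus of the carbohydrate response element, read by the glucose-sensing factor ChREBP.
Pklr, GRCr8 chr2:176841014-176841263, + strand: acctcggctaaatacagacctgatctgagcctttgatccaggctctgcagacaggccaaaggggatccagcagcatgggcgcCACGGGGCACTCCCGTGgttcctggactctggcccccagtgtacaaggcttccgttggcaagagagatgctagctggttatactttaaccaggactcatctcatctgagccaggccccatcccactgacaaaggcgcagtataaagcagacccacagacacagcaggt
Hif1a, GRCr8 chr6:98359648-98359897, + strand: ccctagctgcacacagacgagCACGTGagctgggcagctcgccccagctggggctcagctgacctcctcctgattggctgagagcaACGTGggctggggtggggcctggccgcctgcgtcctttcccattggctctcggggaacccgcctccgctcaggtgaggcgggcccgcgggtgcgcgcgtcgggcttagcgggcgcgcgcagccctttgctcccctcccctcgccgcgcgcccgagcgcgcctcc
Ldha, GRCr8 chr1:106507842-106508091, + strand: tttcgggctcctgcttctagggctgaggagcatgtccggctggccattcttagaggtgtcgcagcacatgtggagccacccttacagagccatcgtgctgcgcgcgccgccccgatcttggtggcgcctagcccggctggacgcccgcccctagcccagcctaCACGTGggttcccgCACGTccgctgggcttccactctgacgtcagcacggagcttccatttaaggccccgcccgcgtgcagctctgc

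The Pklr stretch held the carbohydrate response element, with its first base 168 bases before the start. The consensus searched is its own reverse complement, so any match to it reads on both strands. That motif occurred in 0.472% of 33469 stretches of the same length. ACGTG on either strand occurred in 16.6% of them, with 2 or more matches in 6.53%, where CACGTG alone counts as 2. The Ldha stretch had 3 such matches, beginning 87, 86 and 73 bases before the start, of which the first 2 overlap in a palindrome. The Hif1a stretch had 3, beginning at 229, 228 and 164, also with an overlapping pair. The Slc2a1 stretch had 1, and these letters were not found in the windows of Vegfa, Pklr and Fbp1. A match is a description of letters and was not tied to any reading here.

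**Figure D1:**
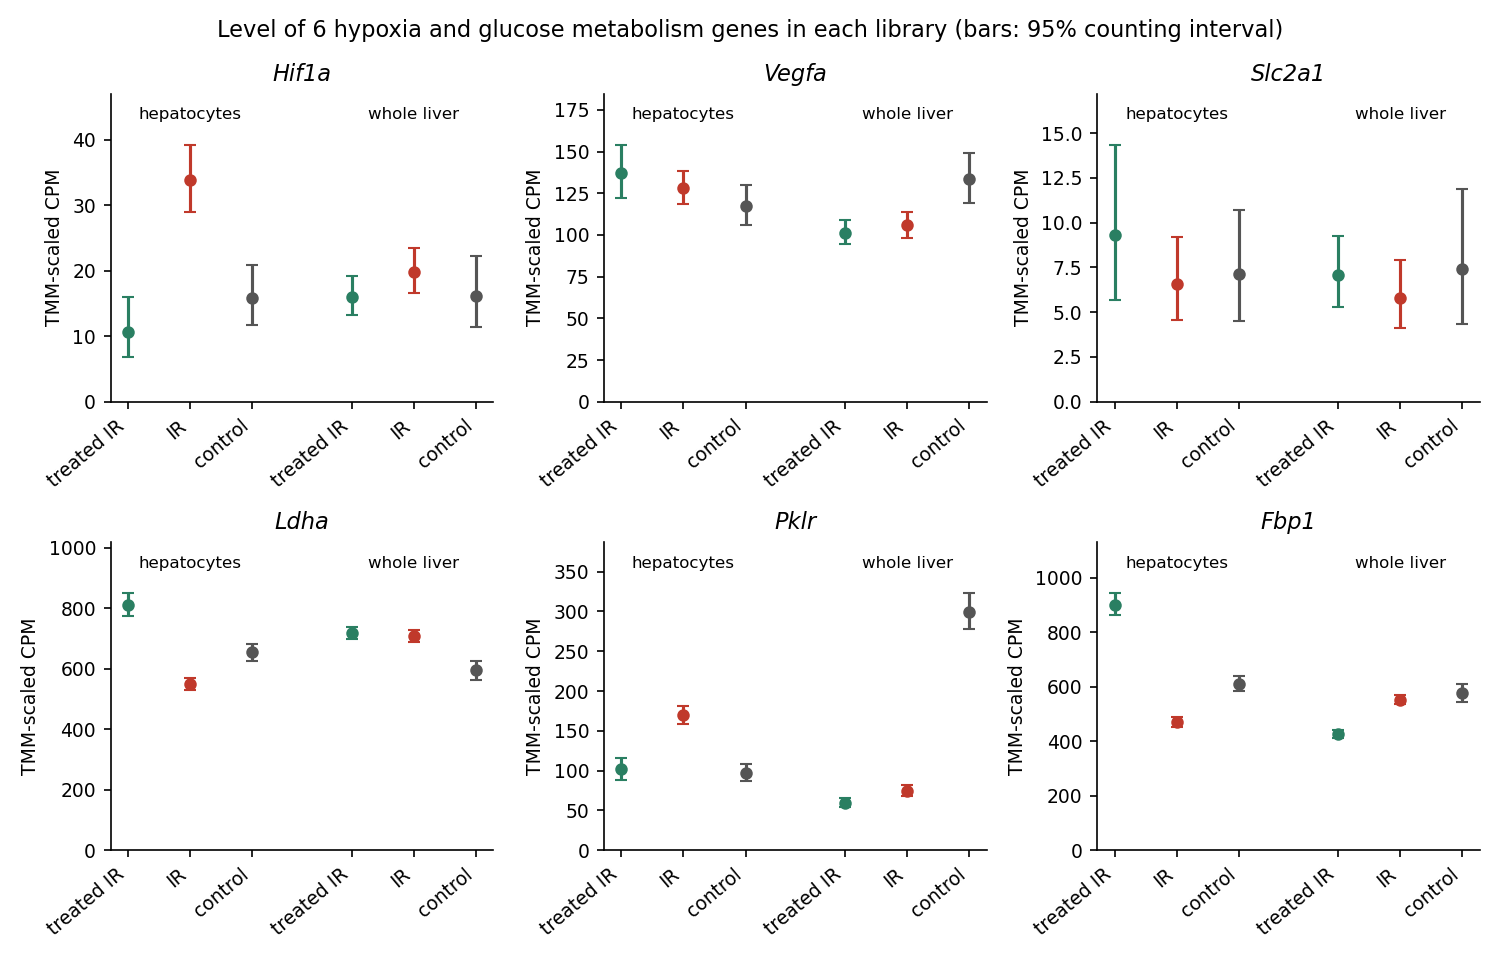
TMM-scaled CPM (y axis) of the 6 genes in the 6 libraries (x axis), with treated IR, IR and control of hepatocytes on the left and of whole liver on the right. Each point is 1 library and each bar its 95% counting interval. Pklr stood between 59.7 and 169 CPM in the other libraries, against 299 CPM in liver control, and Hif1a was highest in hepatocyte IR at 33.8 CPM.

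Hif1a (ENSRNOG00000008292) encodes the oxygen-regulated subunit of HIF-1. In hepatocytes it had 23 reads in treated IR, 175 in IR and 51 in control, or 10.7 CPM (6.77 to 16.0), 33.8 CPM (29.0 to 39.2) and 15.8 CPM (11.8 to 20.8). In liver it had 120, 134 and 37 reads in the same conditions, or 16.0 CPM (13.3 to 19.2), 19.9 CPM (16.6 to 23.5) and 16.15 CPM (11.4 to 22.3). The hepatocyte IR library was thus the high one, and its interval overlapped no other. The other 5 libraries lay between 10.7 and 19.9 CPM, and each overlapped its neighbour in that order.

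Hepatocyte IR was 2.14-fold higher than hepatocyte control (counting interval 1.56 to 2.98), and Hif1a was the gene called apart among the 6. Over all genes this comparison called 16.5% apart, so that 1 of 6 is near the background. Of all genes, 15.8% were at least as far from equality. Hepatocyte treated IR was 3.17-fold lower than hepatocyte IR (2.05 to 5.13), again the 1 of 6 called, where 23.3% of all genes were called, and 8.78% of genes were at least as far. Hepatocyte treated IR and hepatocyte control differed by a ratio of 0.674 (0.393 to 1.12), an interval that includes equality. In liver the ratios were 1.23 (0.849 to 1.82) for IR over control, 0.807 (0.625 to 1.04) for treated IR over IR and 0.992 (0.681 to 1.48) for treated IR over control, and these intervals include equality.

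Vegfa (ENSRNOG00000019598) encodes the main growth factor for blood vessels. It had 296, 662 and 378 reads in treated IR, IR and control hepatocytes, or 137, 128 and 117 CPM. In liver it had 760, 713 and 306 reads, or 101, 106 and 134 CPM. The order in hepatocytes was therefore treated IR, IR, control, with intervals that overlap between neighbours, while in liver the control library was the high one. With library totals alone hepatocyte IR came first in hepatocytes, at 124 CPM against 109 in treated IR and 110 in control. The liver IR level was 0.791 of the liver control level (0.691 to 0.907), and liver treated IR was at 0.760 (0.664 to 0.870). Hepatocyte IR over control was 1.09 (0.960 to 1.24), and treated IR over IR was 1.07 (0.933 to 1.23), with equality inside both. Hepatocyte treated IR over control was 1.17 (1.003 to 1.37), a log2 ratio of 0.23 that was -0.01 with library totals alone.

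Slc2a1 (ENSRNOG00000007284) encodes the glucose transporter GLUT1, while hepatocytes take glucose up mainly through GLUT2. It was read thinly, with 20, 34 and 23 reads in treated IR, IR and control hepatocytes and 53, 39 and 17 in the same liver libraries. Its levels ran from 5.78 CPM in liver IR to 9.29 CPM in hepatocyte treated IR, and the counting intervals of all 6 libraries overlapped. No difference was detectable at this depth. The interval of liver IR over control, 0.430 to 1.47, and that of hepatocyte IR over control, 0.527 to 1.64, leave room for a change of moderate size in either direction.

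Ldha (ENSRNOG00000013009) encodes the lactate dehydrogenase subunit that favours turning pyruvate into lactate. Ldha has processed pseudogenes, and non-unique alignments were kept out of the gene counts, so its level is uncertain. It had 1746, 2838 and 2110 reads in treated IR, IR and control hepatocytes, or 811, 549 and 655 CPM. In liver it had 5385, 4781 and 1362 reads, or 719, 709 and 594 CPM. The highest and the lowest library were thus both from hepatocytes, treated IR and IR. Liver treated IR was the highest with library totals alone, at 889 CPM. Hepatocyte IR was at 0.838 of control (0.792 to 0.887), and hepatocyte treated IR was 1.48-fold higher than hepatocyte IR (1.39 to 1.57). With library totals alone the log2 ratio of treated IR to IR in hepatocytes was 0.27 in place of 0.56. Liver IR was 1.19-fold higher than liver control (1.12 to 1.27), a direction that turned with scaling by library totals alone, where the log2 ratio was -0.07 in place of 0.25. Liver treated IR and liver IR differed by a ratio of 1.015 (0.976 to 1.06).

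Pklr (ENSRNOG00000020420) encodes the liver and red cell pyruvate kinase, which makes pyruvate in the last step of glycolysis and is known to be induced by dietary carbohydrate and insulin. In liver it had 447 reads in treated IR, 504 in IR and 686 in control, although the control library was the shallowest of the 6. The levels were 59.7 CPM (54.3 to 65.5) in treated IR, 74.7 CPM (68.3 to 81.5) in IR and 299 CPM (277 to 323) in control. In hepatocytes it had 219, 876 and 313 reads, or 102 CPM (88.7 to 116) in treated IR, 169 CPM (158 to 181) in IR and 97.2 CPM (86.7 to 108) in control. Liver control was the high library, followed by hepatocyte IR. Hepatocyte treated IR and hepatocyte control overlapped, and both liver libraries after IR lay below them.

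Liver IR was 4.01-fold lower than liver control (3.57 to 4.51), and liver treated IR was 5.02-fold lower (4.45 to 5.66). In each of these comparisons Pklr was the 1 gene of 6 called apart, beside 5.98% of all genes for IR over control and 7.20% for treated IR over control. These comparisons share the liver control library, so they are not independent. Of all genes, 0.624% were at least as far from equality as Pklr for IR over control, and 0.513% for treated IR over control. Between the liver libraries after IR the ratio was 0.799 (0.702 to 0.909), and with library totals alone this log2 ratio was 0.07 in place of -0.32. Here 0 of the 6 genes were called, beside 2.77% of all genes.

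In hepatocytes Pklr was 1.74-fold higher in IR than in control (1.53 to 1.99), short of the 2-fold rule. Treated IR was at 0.6003 of IR (0.515 to 0.697), and with library totals alone this passed the rule, at a log2 ratio of -1.03 in place of -0.74. Treated IR over control was 1.05 (0.877 to 1.25), which includes equality, and 0 of the 6 genes were called in that comparison, beside 8.32% of all genes. The log2 ratio of IR to control was thus 0.80 in hepatocytes and -2.003 in liver, a difference of 2.80 (counting interval 2.56 to 3.05). With 1 library per group that difference was not tested.

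Fbp1 (ENSRNOG00000017597) encodes fructose-1,6-bisphosphatase, a controlled step of glucose synthesis in liver. It had 1941, 2426 and 1967 reads in treated IR, IR and control hepatocytes, or 901, 469 and 611 CPM. In liver it had 3197, 3726 and 1320 reads, or 427, 552 and 576 CPM. Hepatocyte treated IR was the high library, and liver treated IR the low one, where with library totals alone hepatocyte IR was the lowest, at 455 CPM. Treated IR was 1.92-fold higher than IR in hepatocytes (1.81 to 2.04), just short of the 2-fold rule, and stood at 0.773 of IR in liver (0.737 to 0.810). With library totals alone the hepatocyte log2 ratio was 0.65 in place of 0.94, and the liver log2 ratio was 0.02 in place of -0.37. Hepatocyte IR was at 0.768 of hepatocyte control (0.724 to 0.816), and liver IR at 0.958 of liver control (0.900 to 1.02).

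**Figure D2:**
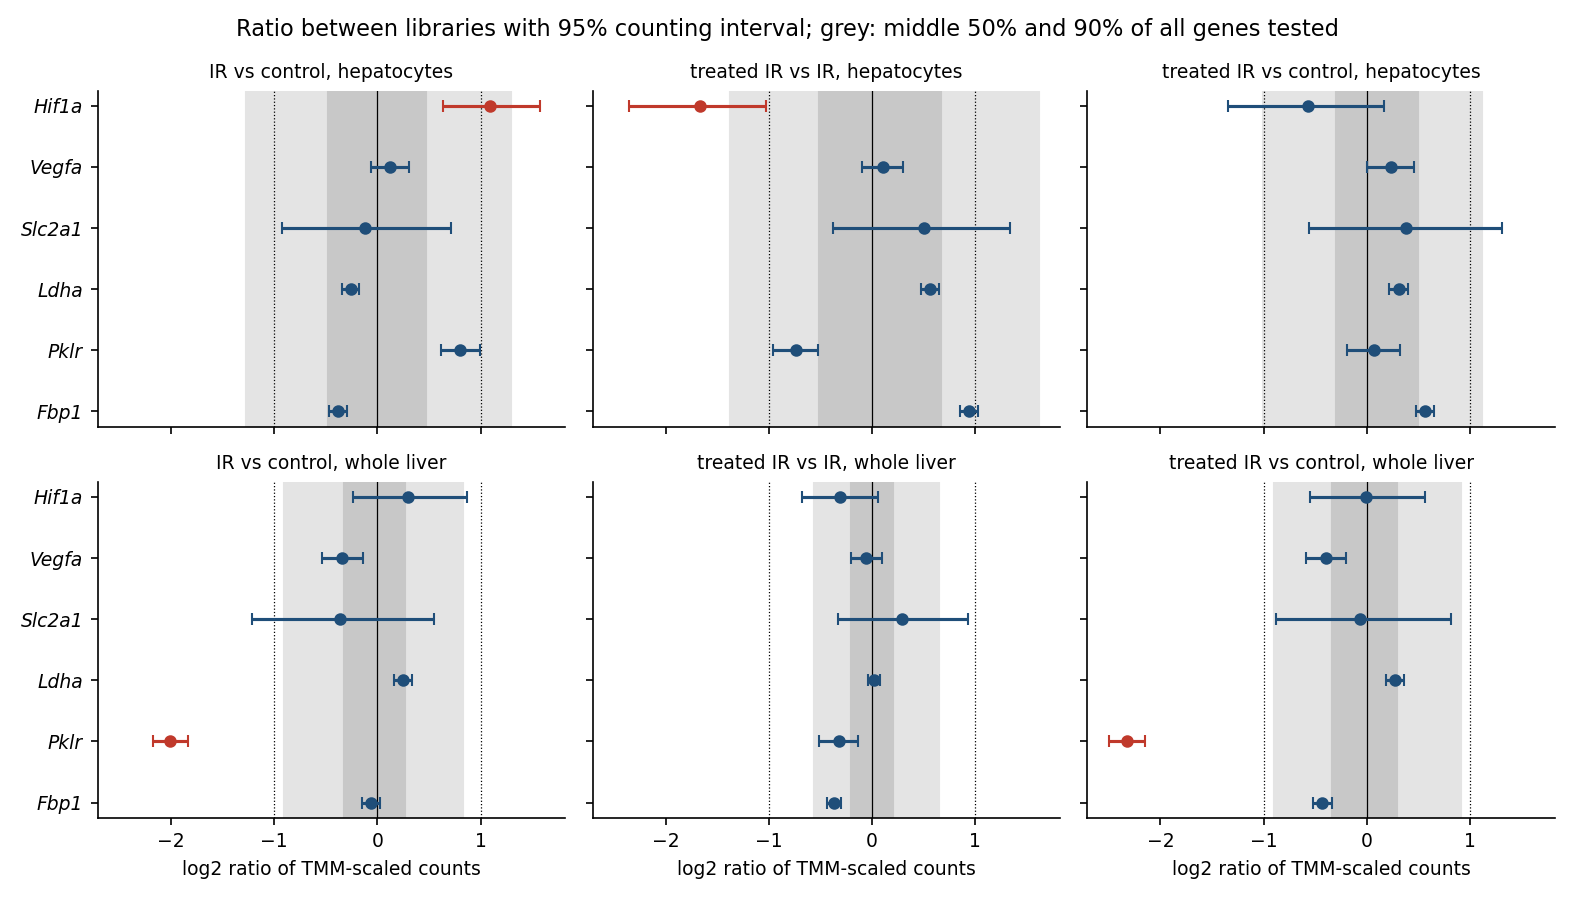
Log2 ratio of TMM-scaled counts (x axis) of the 6 genes (y axis) in 6 comparisons, with 95% counting intervals. The upper row is hepatocytes and the lower row whole liver, red points are called apart, dotted lines mark 2-fold, and grey bands hold the middle 50% and 90% of 9932 genes. Pklr lay outside the band of all genes in both liver comparisons with control, at log2 ratios of -2.003 and -2.33.

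With TMM scaling the 6 genes did not share a direction in any of the 6 comparisons within a preparation. With library totals alone all 6 log2 ratios were below 0 for IR over control in liver, from -2.33 to -0.02, and all 6 were above 0 for treated IR over IR in liver, from 0.02 to 0.69. The medians that follow are for TMM. Their median log2 ratio for IR over control was -0.02 in hepatocytes and -0.20 in liver, beside -0.04 and -0.03 over all genes. For treated IR over IR it was 0.33 in hepatocytes and -0.18 in liver, beside 0.08 and -0.01 over all genes. For treated IR over control it was 0.27 in hepatocytes and -0.29 in liver, beside 0.10 and -0.03. These medians use a prior count of 2, and within a preparation the 3 comparisons share libraries.

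The glycolytic and gluconeogenic genes were also compared within each library, as reads of one gene per read of another. These are ratios of mRNA reads, and enzyme amount and activity were not measured here. Such a ratio needs no scaling between libraries, and it is compared for the same pair of genes only. There were 0.140 reads of Pklr per read of Fbp1 in liver treated IR (Clopper-Pearson, 0.126 to 0.154), 0.135 in IR liver (0.123 to 0.148) and 0.520 in liver control (0.473 to 0.570). In hepatocytes there were 0.113 in treated IR (0.0977 to 0.130), 0.361 in IR (0.334 to 0.390) and 0.159 in control (0.141 to 0.179). Liver control and hepatocyte IR were thus the libraries with the most Pklr relative to Fbp1, and the other 4 lay between 0.113 and 0.159.

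Reads of Ldha per read of Pklr showed the same 2 libraries apart at the low end. There were 12.1 in liver treated IR (10.9 to 13.3), 9.49 in IR liver (8.65 to 10.4) and 1.99 in liver control (1.81 to 2.18). In hepatocytes there were 7.97 in treated IR (6.92 to 9.22), 3.24 in IR (3.00 to 3.50) and 6.74 in control (5.98 to 7.62). Both ratios contain the reads of Pklr, so they are not independent. Ldha per read of Fbp1, which leaves Pklr out, was 1.68 in liver treated IR (1.61 to 1.76), 1.28 in IR liver (1.23 to 1.34) and 1.03 in liver control (0.956 to 1.11). In hepatocytes it was 0.899 in treated IR (0.843 to 0.960), 1.17 in IR (1.11 to 1.24) and 1.07 in control (1.01 to 1.14). In that pair the liver libraries after IR were above liver control, and hepatocyte treated IR was the low library.

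**Figure D3:**
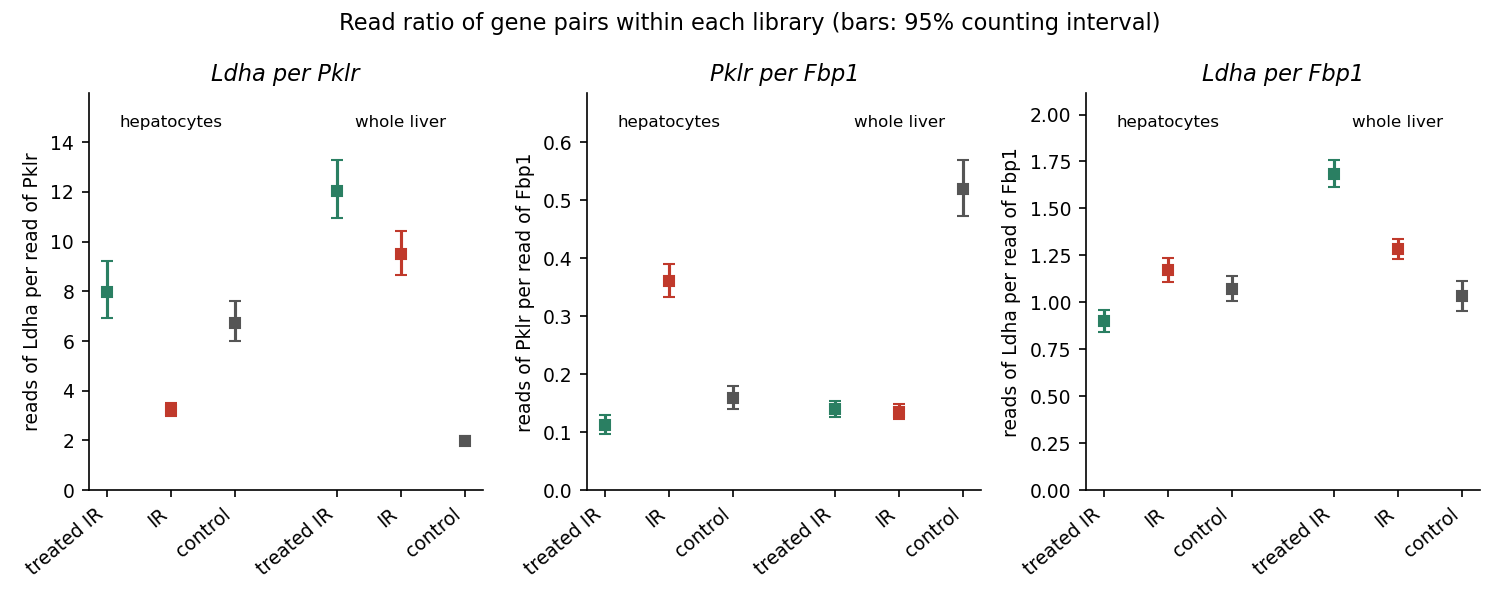
Reads of 1 gene per read of another within each library (y axis, 3 pairs of genes) for treated IR, IR and control of hepatocytes and of whole liver (x axis), with 95% counting intervals. Pklr per Fbp1 was 0.361 in hepatocyte IR and 0.520 in liver control, against at most 0.159 in the other libraries.

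The condition comparisons were then fitted across both preparations at once, with an edgeR quasi-likelihood model that held a preparation term. For IR vs control, edgeR, DESeq2 and limma-voom each called 0 of the 6 genes, with 0 at an unadjusted p under 0.05 by any of them. EdgeR called 0% of all genes, and 3.34% had an unadjusted p under 0.05. Hif1a had a log2 fold change of 0.73 (SE 0.38, edgeR adjusted p = 0.996). Its liver log2 ratio of 0.30, with an interval that includes equality, was -0.02 with library totals alone. Without the hepatocyte IR library the fold change was 0.13 on the log2 scale, and without liver IR it was 1.22. Pklr had -0.77 (SE 0.57, edgeR adjusted p = 0.996), from opposite directions in liver and hepatocytes. Its direction turned without the liver control library, at 0.70, and without liver IR, at 0.09, while it was -1.54 without hepatocyte IR and -1.90 without hepatocyte control.

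For treated IR vs IR the 3 tools again called 0 of the 6, while edgeR called 0% of all genes. At an unadjusted p under 0.05 edgeR and limma-voom had 1 of the 6, Hif1a, and DESeq2 had 0, beside 2.99%, 3.01% and 1.76% of all genes. Hif1a had a log2 fold change of -0.94 (SE 0.38, edgeR adjusted p = 0.981). Its liver ratio had an interval that includes equality, and with library totals alone the liver log2 ratio was 0.08 in place of -0.31. Without the liver IR library, when hepatocytes alone stood for IR, the log2 fold change of Hif1a was -1.49. Without liver treated IR it was -1.55, without hepatocyte IR -0.42 and without hepatocyte treated IR -0.50. These fits leave a single library for a condition, so no call is given for them. Over all 11 alternatives the log2 fold change ran from -1.55 to -0.42. For treated IR vs control 0 of the 6 were called by each tool and 0% of all genes by edgeR, with 1 at an unadjusted p under 0.05 by each of the 3 tools, Pklr. At that threshold edgeR had 2.32%, DESeq2 1.02% and limma-voom 2.27% of all genes. Pklr was lower in liver and near equality in hepatocytes, at -1.36 (SE 0.57, edgeR adjusted p = 1). Without the hepatocyte control library, when liver alone stood for control, Pklr was at -2.43. Without the liver control library its direction turned, at 0.17, and without liver treated IR it was -0.86. Its log2 fold change ran from -2.43 to 0.17 over 11 alternatives.

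Hepatocytes were compared with whole liver with condition as a term. EdgeR, DESeq2 and limma-voom called 0 of the 6 genes, with 0 at an unadjusted p under 0.05 by any of them, where edgeR called 5.34% of all genes and 998 of 9932 were under that unadjusted p. Log2 fold changes ran from -0.02 for Ldha (SE 0.36, edgeR adjusted p = 0.998) to 0.31 for Fbp1 (SE 0.38, edgeR adjusted p = 0.96), with 5 of the 6 above 0. All 6 were below 0 with library totals alone, from -0.33 for Ldha to -0.006 for Fbp1. Hif1a averaged 20.1 ± 12.2 CPM in hepatocytes and 17.3 ± 2.18 CPM in whole liver (SD over conditions, n = 3 each), and Vegfa averaged 128 ± 10.1 and 114 ± 17.5 CPM in the same preparations. Slc2a1 averaged 7.67 ± 1.43 CPM in hepatocytes and 6.76 ± 0.865 CPM in liver, and Ldha 671 ± 132 and 674 ± 69.0 CPM. Pklr averaged 123 ± 40.5 CPM in hepatocytes and 145 ± 134 CPM in liver, and Fbp1 660 ± 220 and 518 ± 80.2 CPM. For each gene the difference of the means was smaller than the larger SD, which here also holds the differences between conditions.

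With TMM scaling, 1 of the 6 genes was called apart between preparations within each condition, Fbp1 or Pklr. That count is near the share of all genes called, which is given beside each. In treated IR, Fbp1 was 2.11-fold higher in hepatocytes than in liver (1.99 to 2.23), the 1 of 6 called, beside 19.7% of all genes. With library totals alone that ratio was 1.35 and Hif1a was called in place of Fbp1, at 2.35-fold lower in hepatocytes. With TMM the Hif1a ratio was 0.667 (0.407 to 1.05), an interval that includes equality. These libraries have the lowest and the highest TMM factor, 0.794 and 1.24, so library totals lower this ratio for every gene. The share of all genes called under library totals is not given for this comparison, so the Hif1a call has no background. In IR, Pklr was 2.27-fold higher in hepatocytes (2.03 to 2.54), the 1 of 6 called, beside 17.4% of all genes. In control, Pklr was 3.08-fold lower in hepatocytes (2.69 to 3.53), the 1 of 6 called, beside 11.1% of all genes. The hepatocyte and liver ratio of Pklr thus had no common direction over conditions. Vegfa was at 1.36 in treated IR (1.18 to 1.55), 1.21 in IR (1.09 to 1.35) and 0.879 in control (0.754 to 1.02), and the treated IR value was 0.866 with library totals alone.

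**Figure D4:**
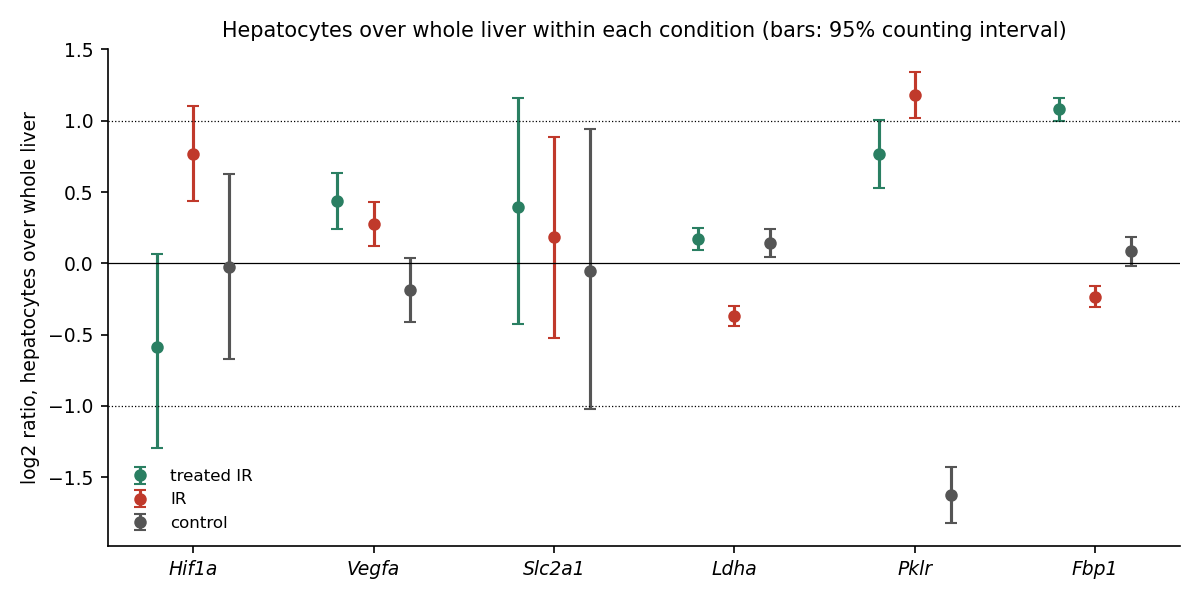
Log2 ratio of hepatocytes over whole liver (y axis) for the 6 genes (x axis) within treated IR, IR and control, with 95% counting intervals and dotted lines at 2-fold. Pklr stood at 0.77 in treated IR, 1.18 in IR and -1.62 in control, and the intervals of Slc2a1 include 0 in all 3 conditions.

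Pklr and Hif1a varied most over the 6 libraries, with an SD of log2 CPM of 0.85 and 0.52. The genes most like them were sought by the root-mean-square difference of centred log2 CPM over the 6 libraries, whose median over all other genes was 0.84 for Pklr and 0.60 for Hif1a. ENSRNOG00000045636 was nearest to Pklr, at 0.21. It had 171, 324 and 255 CPM in treated IR, IR and control hepatocytes, and 118, 127 and 622 CPM in the same liver libraries. Its high library, liver control, is that of Pklr because the gene was chosen by likeness to the Pklr profile. ENSRNOG00000016675 followed at 0.26 with 7 to 26 reads per library. ENSRNOG00000046918 and ENSRNOG00000016987 were nearest to Hif1a, at 0.09 each, but had only 5 to 42 and 7 to 53 reads per library. The files do not pair these IDs with names.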

How the data were processed

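Libraries were built from poly(A)-selected RNA with an Ion Total RNA-Seq kit for a Proton sequencer (Ion Torrent), per the labels. The authors deposited unnormalized counts of reads per Ensembl ID, with TopHat2 2.0.13 and HTSeq 0.6.1 named in the submitters' processing notes. The build, the annotation and whether strand was used in counting are not stated, so reads of antisense and overlapping genes cannot be told apart. Summary lines were left out: reads outside genes were 6.23% to 8.34% and ambiguous reads 0.358% to 0.798% of uniquely aligned reads.

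Groups came from the sample titles. Low counts were removed by filterByExpr of edgeR (grouped by condition, minimum count 10), and libraries were scaled by TMM (factors 0.794 to 1.24). Ratios of 2 libraries carry Clopper-Pearson intervals at 95% and no p-value. The model was edgeR's quasi-likelihood test on 6 libraries with preparation and condition as terms, which leaves 2 residual degrees of freedom; p-values were adjusted by Benjamini-Hochberg over 9932 genes, with a threshold of 0.05. P-values rest on the spread of each gene, that is, how far the differences between conditions disagree between liver and hepatocytes. The tools draw that spread toward that of all genes tested, so a p-value does not rest on the gene's own libraries alone. With a single pool per group, variation between pools cannot be told apart there from a response unlike in the preparations. The tools were edgeR 4.0.16, DESeq2 1.42.0 and limma 3.58.1 in R 4.3.3.

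On simulated data for IR vs control over 9932 genes, the model found 6 of 67 genes set to differ 2-fold. It found 50 of 67 set to 4-fold and 63 of 66 set to 8-fold, and made 4 false calls. Every simulated gene had the same relative spread between libraries. Its level and its response were also the same in both preparations. The real libraries need not be so, and these rates may not hold for them. The alternatives tried were scaling by library totals or DESeq2's size factors, no filter, a 4-fold rule, DESeq2's Wald test, limma-voom and leaving out each library. The genes named were all 6 members and, for the 2 most variable of them, the 2 nearest genes each. The members and lists were chosen with earlier results of these data known. Lists of other hypoxia, glycolysis, gluconeogenesis and cell marker genes were drawn up by symbol and not used, since the IDs could not be paired with symbols.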

Additional observations from a re-analysis of the deposited data

Results flagged for a closer look

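For some genes the hepatocyte and liver libraries moved in opposite directions with both counting intervals excluding equality. Values are the log2 ratio in hepatocytes minus that in liver. With 1 library per group these differences were not tested. For IR vs control, Pklr differed by 2.80 (0.80 in hepatocytes and -2.003 in liver), and it stayed opposite with library totals alone, at 0.86 and -2.33. In the same comparison Ldha differed by -0.51 (-0.26 in hepatocytes and 0.25 in liver), and with library totals alone both were below 0, at -0.20 and -0.07. Fbp1 differed by 1.31 for treated IR vs IR (0.94 in hepatocytes and -0.37 in liver). With library totals alone the hepatocyte value was 0.65 and the liver value 0.02. Fbp1 also differed by 0.99 for treated IR vs control (0.56 in hepatocytes and -0.43 in liver), and these stayed opposite with library totals alone, at 0.33 and -0.36. Vegfa differed by 0.62 for treated IR vs control (0.23 in hepatocytes and -0.40 in liver), and with library totals alone both were below 0, at -0.01 and -0.33. Fbp1 and Vegfa values for comparisons that share a library are not independent.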

How the results depend on the processing

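Scaling by library totals alone shifted all log2 ratios by -0.32 for IR over control and 0.39 for treated IR over IR in liver, and by -0.29 and -0.24 for treated IR over IR and over control in hepatocytes. Of the 36 ratios of the 6 genes, 11 changed sign under it, none of them called apart. DESeq2's size factors changed the sign of 0 and no filter of 1. For treated IR over IR in hepatocytes, library totals called 2 genes (Hif1a and Pklr) in place of 1, beside 25.9% of all genes in place of 23.3%. The 4-fold rule called 0 in place of 1 for that comparison and 0 in place of 1 for IR over control in hepatocytes. It also called 0 in place of 1 for hepatocytes over liver in treated IR, in IR and in control, a comparison within conditions that was added after seeing the data. The liver calls of Pklr against control were kept under these settings. For IR over control in liver, Pklr only just met the 4-fold rule, at 4.01-fold. The share of all genes called under the 4-fold rule is not given, so its calls have no background. In the model, leaving out 1 library leaves a single library for a condition, so only fold changes are given for those fits. The cause of the changes between settings was not tested. Each Pklr call in liver rests on the single control library. No paired analysis was possible because the labels carry no replicate numbers that could pair animals or pools. The model has a preparation term and fits a single effect of condition over both preparations. Depth limits Slc2a1 most, at 17 to 53 reads.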
